A study of Mus musculus with 4 samples.

Results

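The Fc receptors of the cultures were followed through 6 genes, which were chosen by symbol from the 53465 genes of the count files. They are Fcgr1, Fcgr3 and Fcgr4, which encode activating receptors for immunoglobulin G (IgG), Fcgr2b, which encodes the inhibitory IgG receptor, Fcer1g, which encodes the common gamma chain, and Fcgrt, which encodes the neonatal Fc receptor. Fcgr3 was selected because its counts differed strongly between the ctrl replicates, so that difference is described here without a test. All 6 genes passed the filter on low counts and were among the 15766 tested genes.

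RNA-Seq was performed on primary (1°) mouse oligodendroglial cell (OGC) cultures prepared from forebrain of pups aged 2 to 4 days by shake-off and depletion of microglia and then differentiated for 3 days. There were 2 independent preparations of ctrl cells (Zfp276 flox/flox) and 2 of Zfp276cko cells (Sox10::Cre tg; Zfp276 flox/flox), each from 3 mice. Both groups thus carry the floxed Zfp276 alleles, and the groups differ in the Sox10::Cre BAC transgene, which recombines in the oligodendroglial lineage from the precursor stage. The study's methods give a mixed C3H and C57Bl/6J background for its mice and a Cre-dependent tdTomato allele at Rosa26 that was crossed into the mice for these cultures to identify Zfp276cko pups.

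Libraries held between 21068322 and 26599809 counted reads. Zfp276 itself had 1648 normalized counts in the first and 2230 in the second ctrl replicate, then 489.5 and 503 in the Zfp276cko replicates (log2 fold change −1.97 with a standard error, SE, of 0.18, edgeR adjusted p = 0.0962). Counts were brought to the average effective library size, and these are called normalized counts. The ctrl libraries stood apart from each other much more than the Zfp276cko libraries did. Among the 14324 genes that averaged 20 or more normalized counts, ctrl replicate 1 was at least 2-fold above ctrl replicate 2 in 6.67% and at least 2-fold below it in 6.02%, whereas the Zfp276cko replicates were at least 2-fold apart in 0.307%. The Zfp276cko pair nevertheless differed beyond sampling noise, with a chi-square per gene of 5.63 against 87.7 in the ctrl pair, where counting error alone gives 1. The oligodendroglial markers were among the most counted genes, with Mbp, a myelin protein gene, at 118071 and 177958 normalized counts in the ctrl pair, 87161 and 89976 in the Zfp276cko pair. Of 12 oligodendroglial markers DESeq2 called 8 lower, against 2.3% of all genes. edgeR called 0, and 9 were lower by unadjusted p up to 0.05 with a log2 fold change of 0.6 or more in size, against 3.02% of all genes. Sox10 had 18135 and 20744 against 17805 and 18611.

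Fc receptors bind the constant part of antibodies and are known in the brain from microglia and macrophages. The activating receptors Fcgr1, Fcgr3 and Fcgr4 signal through the gamma chain Fcer1g, whose cytoplasmic tyrosine motif (ITAM) recruits the kinase Syk after phosphorylation by Src family kinases. Fcgr2b carries an inhibitory motif and recruits phosphatases such as Inpp5d, and most myeloid cells set their response by the balance of the activating and inhibitory receptors. Fcgrt pairs with beta-2 microglobulin (B2m), binds IgG inside acidic endosomes and protects it from degradation.

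Fcgr3 and Fcgr2b were far apart between the ctrl libraries while Fcer1g was nearly level in all 4 libraries, and Fcgr1 and Fcgr4 had their 2 ctrl libraries below either Zfp276cko library. No Fc receptor gene passed the main test: edgeR called 0 of the 6, against 0 of 15766 genes in all (0%). Taking unadjusted p up to 0.05 with a log2 fold change of 0.6 or more in size and a mean count of 20 or more, 2 of the 6 genes were higher (Fcgr1 and Fcgr4) and 0 lower, where 5.11% of all tested genes were higher and 3.02% lower. DESeq2 called the same 2 genes higher at an adjusted p of at most 0.05 and called 0 lower, against 3.05% and 2.3% of its genes. limma voom called 0 genes in either direction. With 2 libraries per genotype, an exact permutation test (two-sided) cannot go below p = 0.333.

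**Figure D1:**
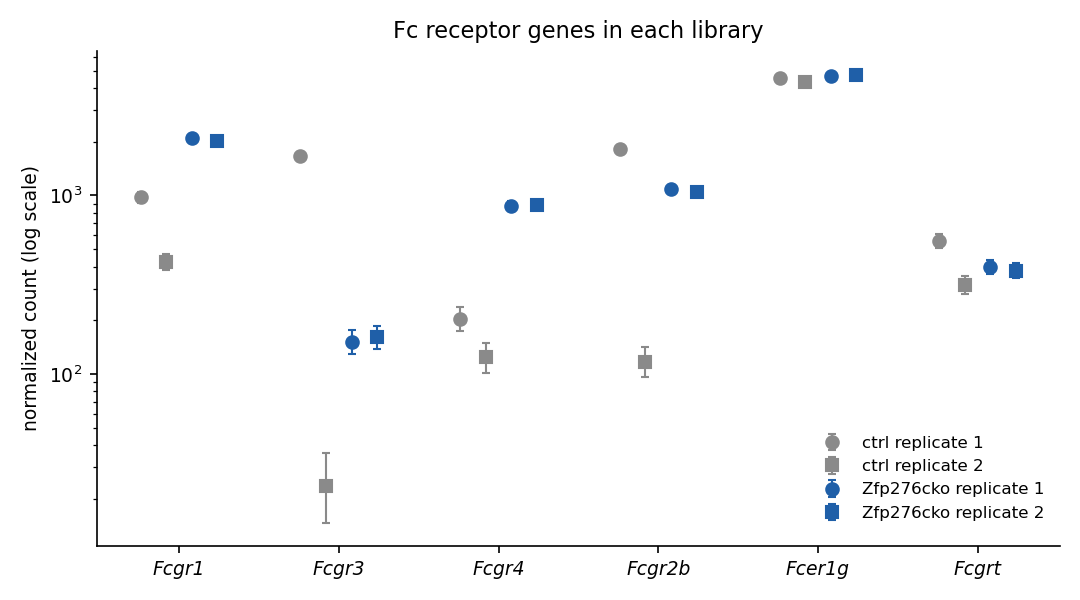
Normalized counts (log scale) of the 6 Fc receptor genes in each library; grey marks ctrl and blue Zfp276cko, circles replicate 1 and squares replicate 2, and bars are exact 95% Poisson intervals of the count. Fcgr3 spans 1656 to 23.6 within ctrl, and both Zfp276cko libraries lie between these values at 152 and 161.

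Fcgr1 encodes the high-affinity IgG receptor (CD64), the one receptor of the group that binds single IgG molecules firmly. In mm10 it spans bases 96282909 to 96293969 of chromosome 3, minus strand. Its normalized counts were 976 in the first and 426.5 in the second ctrl replicate, then 2089 and 2027 in the Zfp276cko replicates. Both Zfp276cko libraries stood above both ctrl libraries, and the step from the higher ctrl library to the Zfp276cko mean was 2.11-fold, close to the 2.29-fold step between the ctrl libraries. The means were 701 ± 389 (SD, n = 2) for ctrl against 2058 ± 44.3 (SD, n = 2) for Zfp276cko, a log2 fold change of 1.55 (SE 0.42, edgeR adjusted p = 0.227, DESeq2 adjusted p = 0.00558). The log2 fold change came to 2.27 when ctrl replicate 1 was dropped and to 1.06 when ctrl replicate 2 was.

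Fcgr4 encodes an activating receptor of intermediate affinity for IgG2a and IgG2b and lies on chromosome 1 from 171018920 to 171029761 on the plus strand. Its normalized counts were 203 in ctrl replicate 1, 124 in ctrl replicate 2, 869.6 in Zfp276cko replicate 1 and 881.5 in Zfp276cko replicate 2. The groups did not overlap, and the Zfp276cko mean was 4.31-fold above the higher ctrl library. Fcgr4 had the smallest p of the 6 genes. The means of 163 ± 56.0 (SD, n = 2) for ctrl against 875.5 ± 8.43 (SD, n = 2) for Zfp276cko gave a log2 fold change of 2.42 (SE 0.28, edgeR adjusted p = 0.113, DESeq2 adjusted p = 1.88e-11), and the value stayed between 2.09 and 2.82 when any 1 library was dropped.

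Fcgr3 (CD16) encodes the low-affinity activating IgG receptor and lies on chromosome 1 from 171051174 to 171064935 on the minus strand. It was counted 1395 times in ctrl replicate 1 and 21 times in ctrl replicate 2, and 168 and 187 times in Zfp276cko replicates 1 and 2. Scaled to library size these were 1656, 23.6, 152 and 161 normalized counts, with exact 95% Poisson intervals of 1570.5 to 1745.5 and 14.6 to 36.1 in the ctrl libraries, which cover counting error only. Ctrl replicate 1 was thus the highest library and ctrl replicate 2 the lowest, 70.1-fold apart, with both Zfp276cko libraries between them. By this ratio Fcgr3 ranked 12 of 14324 genes. The Zfp276cko mean of 156 ± 6.11 (SD, n = 2) was 6.62-fold above ctrl replicate 2, and ctrl replicate 1 was 10.6-fold above the Zfp276cko mean.

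The sign of the genotype difference of Fcgr3 depended on the ctrl library. The log2 fold change was −2.42 (SE 1.72, edgeR adjusted p = 0.556) with all libraries. It was 2.72 when ctrl replicate 1 was dropped and −3.42 when ctrl replicate 2 was.

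Fcgr2b (CD32b) encodes the inhibitory IgG receptor and lies on chromosome 1 from 170958617 to 170976547 on the minus strand. Its normalized counts were 1833 in ctrl replicate 1, 117 in ctrl replicate 2, 1088 in Zfp276cko replicate 1 and 1049 in Zfp276cko replicate 2. As for Fcgr3, the ctrl libraries enclosed the Zfp276cko libraries, but the ctrl libraries were 15.7-fold apart and the Zfp276cko mean lay nearer to ctrl replicate 1. The log2 fold change of 0.13 (SE 1.19, edgeR adjusted p = 0.971) turned to −0.79 without ctrl replicate 2 and was 3.19 with ctrl replicate 1 left out. Fcgr2b was the other gene of the 6 among the 0.663% of genes in which ctrl replicate 1 was at least 10-fold above ctrl replicate 2, a difference of the kind by which Fcgr3 was chosen.

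Fcer1g encodes the common gamma chain, the signalling subunit shared by the activating receptors, and lies on chromosome 1 from 171229572 to 171234365 on the minus strand. Fcer1g had 4552 and 4319 normalized counts in the ctrl pair, 4676 and 4713 in the Zfp276cko pair, so the 2 groups did not overlap, with means only 1.06-fold apart. The ctrl libraries differed 1.05-fold. Its log2 fold change was 0.08 (SE 0.09, edgeR adjusted p = 0.72), between 0.03 and 0.12 with each library left out in turn.

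Fcgrt encodes the neonatal Fc receptor (FcRn), a relative of MHC class I molecules, and lies on chromosome 7 from 45092990 to 45103851 on the minus strand. Its normalized counts were 557 in the first and 315 in the second ctrl replicate, then 398 and 379 in the Zfp276cko replicates. The Zfp276cko libraries again lay between the ctrl libraries, which were 1.77-fold apart. The log2 fold change was −0.17 (SE 0.31, edgeR adjusted p = 0.837), and 0.30 without ctrl replicate 1.

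Counted over the group, the Zfp276cko libraries exceeded the ctrl libraries without overlap in 3 of the 6 genes (Fcgr1, Fcgr4 and Fcer1g), where 26.4% of genes with a mean of at least 20 did so, and fell short of them without overlap in 0 genes, where 24.8% did. The median log2 fold change of the 6 genes was 0.107, beside −0.00125 over all tested genes. The plot of the genotype differences shows that the sign depended on a ctrl library for Fcgr3, Fcgr2b and Fcgrt and on no library for Fcgr1, Fcgr4 and Fcer1g.

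**Figure D2:**
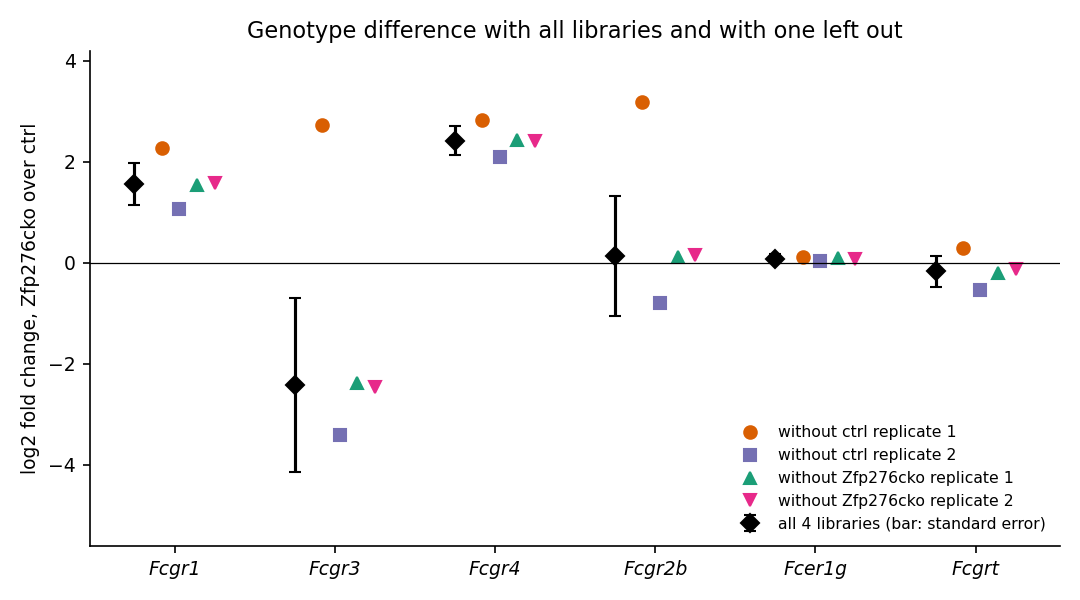
Log2 fold change of Zfp276cko over ctrl for each Fc receptor gene with all 4 libraries (black, bar is the standard error from edgeR) and with each library left out in turn (coloured). Fcgr4 lies between 2.09 and 2.82 throughout, whereas Fcgr3 moves from −3.42 to 2.72 with the ctrl library that is left out.

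Levels of different genes were compared as TPM, a count per exon length scaled to the same total in every library. The exon length was that of all annotated exons of a gene together. It was 5790 nt for Fcgr2b and 1736 nt for Fcgr3, whose longest coding transcripts have 3544 and 1347 nt. For Fcgr1 (2589 nt) and Fcgr4 (1256 nt) both lengths were the same. The orders of genes, shares and ratios given in TPM depend on this choice of length. Fcer1g was the highest of the 6 in every library, between 736 and 896 TPM. Among the other genes of ctrl replicate 1, Fcgr3 stood first with 135 TPM, followed by Fcgr1 (53.2), Fcgr2b (44.7), Fcgrt (37.4) and Fcgr4 (22.8). In ctrl replicate 2 the order was Fcgr1 (26.3 TPM), Fcgrt (23.97), Fcgr4 (15.8), Fcgr2b (3.23) and Fcgr3 (2.18), so that the TPM of Fcgr3 was the second highest of the 6 in one ctrl library and the lowest in the other. Both Zfp276cko libraries shared the order Fcgr1 (135 and 127 TPM), Fcgr4 (116 and 114), then Fcgr2b (31.5 and 29.5) and Fcgrt (31.7 and 29.3), which did not differ beyond their spread, and Fcgr3 (14.7 and 15.1).

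The makeup of the Fcγ receptor mRNA differed between the ctrl libraries. The TPM of Fcgr1, Fcgr2b, Fcgr3 and Fcgr4 summed to 256 in ctrl replicate 1 and 47.5 in ctrl replicate 2, and to 297 and 286 in Zfp276cko replicates 1 and 2. Fcgr3 made up 52.7% of this sum in ctrl replicate 1, against 4.58% in ctrl replicate 2 and 4.93% and 5.26% in the Zfp276cko libraries. The inhibitory Fcgr2b took 17.5% of the sum in ctrl replicate 1, 6.8% in ctrl replicate 2, and 10.6% and 10.3% in Zfp276cko cells. Expressed as a ratio, the TPM of the activating receptors was 4.72 and 13.7 times that of Fcgr2b in the first and second ctrl replicate, 8.45 and 8.7 times in the Zfp276cko replicates. The ctrl libraries enclosed the Zfp276cko libraries in this ratio, whose size depends on the exon lengths used. In ctrl replicate 2, where the activating receptors were low, the TPM of the gamma chain was 17.8 times their sum, while it was between 3.37 and 3.49 times their sum in the other libraries.

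**Figure D3:**
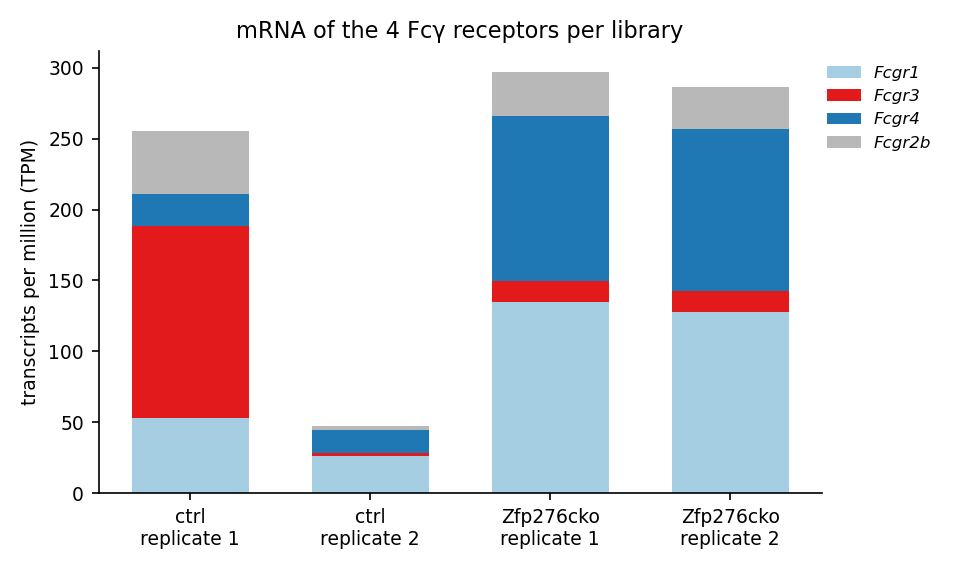
Stacked TPM of the 4 Fcγ receptor genes in each library. The stack of ctrl replicate 1 (256 TPM) is close in height to those of Zfp276cko cells (297 and 286 TPM) but consists to 52.7% of Fcgr3 (red), and ctrl replicate 2 reaches 47.5 TPM.

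Set against the gamma chain within each library, Fcgr3 had 36.4 and 0.547 counts per 100 counts of Fcer1g in the first and second ctrl replicate, 3.25 and 3.41 in the Zfp276cko replicates. The same ratio was 21.4 and 9.87 in the ctrl pair, 44.7 and 43.0 in the Zfp276cko pair for Fcgr1, and 4.46 and 2.87 against 18.6 and 18.7 for Fcgr4. Scaling by the gamma chain left the order of the libraries as it was. Because Fcer1g was nearly level in all libraries, it could hardly have changed that order.

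Markers of microglia and macrophages were present in every library although the cultures had been depleted of these cells. Of 30 listed markers 28 were tested, and Gpr34 and Siglech had no counts. The summed level of the list was 248814 normalized counts in the first and 123761 in the second ctrl replicate, then 174145 and 172722 in the Zfp276cko replicates, so the ctrl libraries enclosed the Zfp276cko libraries here too. Of the 28 tested markers 13 were at least 2-fold higher in ctrl replicate 1 than in ctrl replicate 2 and 1 was at least 2-fold lower, where 6.67% and 6.02% of all genes were. In bulk cultures, fewer cells of a type and less RNA per cell cannot be told apart.

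The microglial markers did not move as 1 block. Cx3cr1, the fractalkine receptor of microglia, had 2290 and 2369 normalized counts in the ctrl libraries, Ptprc (CD45) had 3018 and 3101, and Aif1 (Iba1) had 1248 and 3204, whereas Csf1r, the receptor for the growth factor on which microglia depend, had 11409 and 1850. Their values were known when these 4 markers were picked. Cx3cr1, Ptprc and Aif1, which were not higher in ctrl replicate 1, were not typical of the list. Its median log2 ratio of ctrl replicate 1 to ctrl replicate 2 was 0.846. Aif1 was the 1 marker at least 2-fold lower in ctrl replicate 1, whereas 13 of the 28 tested markers were at least 2-fold higher there. The most counted marker, Lyz2 (lysozyme), had 113817 and 54311 in the ctrl pair, 58484 and 55256 in the Zfp276cko pair. The part of these markers in the differences of Fcgr3 and Fcgr2b was not tested.

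Relative to the summed counts of the microglia and macrophage list, Fcgrt had values close to each other, with 2.24 and 2.55 counts per 1000 in the ctrl pair, 2.29 and 2.19 in the Zfp276cko pair. Fcgr1 had 3.92 and 3.45 counts per 1000 in the ctrl pair against 12 and 11.7 in the Zfp276cko pair, and Fcgr4 had 0.816 and 1.0 in the ctrl pair, 4.99 and 5.1 in the Zfp276cko pair. The ctrl libraries were closer together on this scale than in normalized counts for these 3 genes, and the groups of Fcgr1 and Fcgr4 stayed apart. The same ratio of Fcgr3 was 6.66 and 0.191 in the ctrl pair, 0.873 and 0.93 in the Zfp276cko pair, and that of Fcgr2b was 7.37 and 0.946 in the ctrl pair, 6.25 and 6.07 in the Zfp276cko pair, so the ctrl libraries remained far apart. Without Lyz2 in the list, Fcgr1 had 7.23 and 6.14 counts per 1000 in the ctrl pair, 18.1 and 17.3 in the Zfp276cko pair. On that scale Fcgrt had 4.12 and 4.54 in the ctrl pair, 3.44 and 3.23 in the Zfp276cko pair, so that both Zfp276cko values were below both ctrl values.

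**Figure D4:**
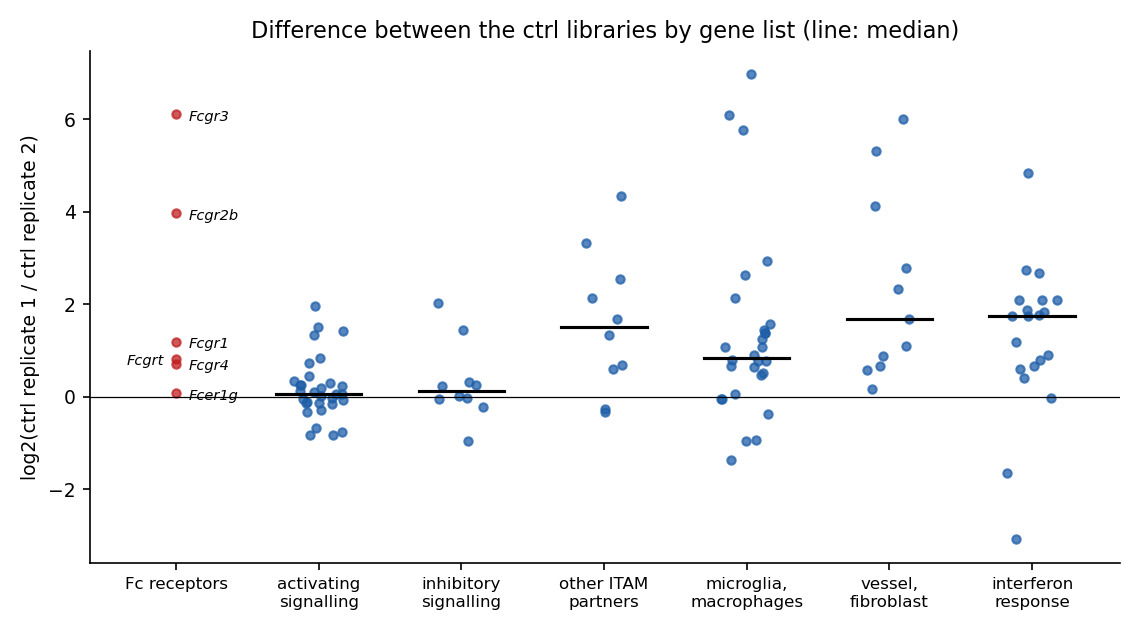
Log2 ratio of ctrl replicate 1 to ctrl replicate 2 for the Fc receptor genes (red, named) and the tested genes of other lists (blue; black lines are medians). Fcgr3 (6.10) and Fcgr2b (3.96) lie far above the medians of the activating and inhibitory signalling lists (0.064 and 0.124) and within the range of the microglia and macrophage list, which reaches 6.97.

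The genes whose pattern over the 4 libraries was most like that of Fcgr3, by the smallest root mean square difference of centred log2 values among 14318 genes, were Mrc1, Hpse and Pf4, with differences of 0.171, 0.18 and 0.251. Mrc1, the mannose receptor of perivascular and meningeal macrophages, had 566 and 7.9 normalized counts in the ctrl pair, 54.3 and 43.8 in the Zfp276cko pair. Hpse, which encodes heparanase, had 193.5 and 2.3 in the ctrl pair, 20.8 and 22.3 in the Zfp276cko pair. Pf4, a chemokine of platelets and of macrophages at the borders of the brain, had 628 and 4.5 in the ctrl pair, 44.3 and 37.8 in the Zfp276cko pair. For all 3 genes, as for Fcgr3, ctrl replicate 1 was the highest library and ctrl replicate 2 the lowest. This order was not particular to them. P2ry13, named after its values were seen, had 332 and 5.6 in the ctrl pair, 86.9 and 80.8 in the Zfp276cko pair. It is in the microglia and macrophage list, as are Mrc1 and Pf4. In 9 of the 28 tested genes of that list both Zfp276cko libraries were instead above both ctrl libraries. The genes most like Fcer1g were Tfrc, Hps5 and Zfp503 (differences of 0.00415, 0.00899 and 0.0115), and those most like Fcgrt were Lars, Mmaa and Mapk9 (0.00764, 0.0166 and 0.0194). With 4 libraries such likeness is a description only.

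Markers of other blood cells were at low levels. The list of neutrophil, mast cell, NK cell, lymphocyte, platelet and erythroid markers summed to between 66 and 109 normalized counts per library, and 2 of its 21 genes were tested. Ly6g, Cpa3, Tpsb2, Mcpt4 and Ms4a1 had no counts. Genes of vessels, choroid plexus and fibroblasts summed to 7075 normalized counts in ctrl replicate 1 and to between 498 and 783 in the other libraries, with Col1a2 at 2703 and 41.6 in the ctrl libraries. Of its 11 tested genes 7 were at least 2-fold higher in ctrl replicate 1 than in ctrl replicate 2 and 0 at least 2-fold lower. In all genes these shares were 6.67% and 6.02%. Col1a1 had 2522 and 63.0 in the ctrl pair, whereas the vessel gene Pecam1 had 106 and 93.4. The sum of this list, but not every gene in it, was thus highest in ctrl replicate 1, as were Fcgr3 and Fcgr2b. In ctrl replicate 2 the sum (783) was not below the Zfp276cko libraries (755 and 498), whereas Fcgr3 and Fcgr2b were lowest there. The part of this list in the differences of Fcgr3 and Fcgr2b was not tested.

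Fcgr2b, Fcgr4, Fcgr3 and Fcer1g lie in this order within 276 kb of chromosome 1. Between them and up to 100 kb beyond, the annotation holds 19 other protein-coding genes found in the files, of which 13 were tested. The log2 ratio of ctrl replicate 1 to ctrl replicate 2 lay between −0.88 and 0.93 in these 13 genes, against 6.10 in Fcgr3, 3.96 in Fcgr2b, 0.71 in Fcgr4 and 0.08 in Fcer1g. Sdhc, a subunit of succinate dehydrogenase between Fcgr3 and Fcer1g, had 2665 and 2565 normalized counts in the ctrl pair, 2498 and 2369 in the Zfp276cko pair. The genotype differences of the 13 genes lay between −0.83 (Adamts4) and 0.23 (Dusp12) on the log2 scale, beside 2.42 for Fcgr4.

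**Figure D5:**
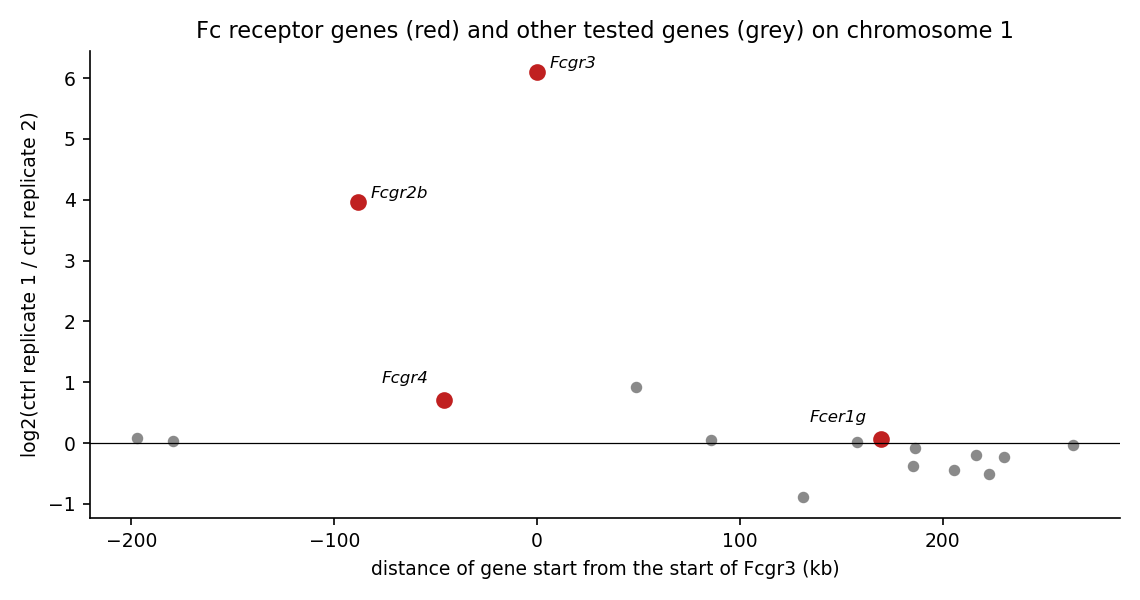
Log2 ratio of ctrl replicate 1 to ctrl replicate 2 for the 4 Fc receptor genes of chromosome 1 (red) and the 13 other tested protein-coding genes (grey), by the distance of each gene's start from that of Fcgr3. Fcgr3 and Fcgr2b stand out from genes on either side, which lie between −0.88 and 0.93.

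The IgG receptors resemble each other in sequence, and reads that map to more than 1 place were not counted. Of the 101-base windows of the longest coding transcript, as long as a read, 3.37% of Fcgr3 also occurred in a transcript of Fcgr2b and 6.65% of Fcgr2b occurred in transcripts of other genes, Fcgr3 among them. No window of Fcgr1, Fcgr4, Fcer1g or Fcgrt was shared with another annotated gene. Exons of Fcgr2b overlap those of Gm38204 over 155 nt, and the strand setting of the counting is not given in the sources used here.

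The promoters of the 4 IgG receptors are shown because of how the counts of these genes fell. Fcgr1 and Fcgr4 were higher in Zfp276cko cells without overlap, though edgeR called neither. Fcgr3 and Fcgr2b were at least 10-fold higher in ctrl replicate 1 than in ctrl replicate 2. Fcgr1 (2.29-fold) and Fcgr4 (1.64-fold) also differed between the ctrl libraries. The promoters are RefSeq sequences of GRCm38.p6 from 250 bases before to 50 bases after the start. They are written 5′ to 3′ on the strand of the gene. Capitals mark matches to 3 motifs searched on both strands: GAS, the interferon gamma activated site (TTCNNNGAA, its own reverse complement), the core of the ISRE, bound by interferon regulatory factors (GAAA, any 2 bases, GAAA), and the box of PU.1, a factor of myeloid cells (GAGGAA). The windows are chr3:96293920-96294219 and chr1:171059354-171059653 on the minus strand, chr1:171018676-171018975 on the plus strand and chr1:170976022-170976321 on the minus strand.
Fcgr1 promoter: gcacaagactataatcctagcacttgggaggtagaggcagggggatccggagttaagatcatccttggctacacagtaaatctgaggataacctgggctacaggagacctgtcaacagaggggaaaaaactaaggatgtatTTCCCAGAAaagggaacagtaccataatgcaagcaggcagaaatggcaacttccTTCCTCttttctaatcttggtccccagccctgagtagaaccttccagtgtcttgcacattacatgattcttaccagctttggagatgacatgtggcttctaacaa
Fcgr4 promoter: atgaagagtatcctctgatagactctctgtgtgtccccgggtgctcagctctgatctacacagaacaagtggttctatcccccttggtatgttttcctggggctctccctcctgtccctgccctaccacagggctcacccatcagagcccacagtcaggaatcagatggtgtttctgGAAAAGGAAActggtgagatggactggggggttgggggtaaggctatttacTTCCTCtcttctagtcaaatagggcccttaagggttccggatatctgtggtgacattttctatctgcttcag
Fcgr3 promoter: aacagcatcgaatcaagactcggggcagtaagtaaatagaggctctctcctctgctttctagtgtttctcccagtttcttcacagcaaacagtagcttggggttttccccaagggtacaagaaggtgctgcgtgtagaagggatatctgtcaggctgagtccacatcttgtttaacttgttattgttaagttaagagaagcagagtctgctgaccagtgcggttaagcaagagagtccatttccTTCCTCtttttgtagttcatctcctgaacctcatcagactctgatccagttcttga
Fcgr2b promoter: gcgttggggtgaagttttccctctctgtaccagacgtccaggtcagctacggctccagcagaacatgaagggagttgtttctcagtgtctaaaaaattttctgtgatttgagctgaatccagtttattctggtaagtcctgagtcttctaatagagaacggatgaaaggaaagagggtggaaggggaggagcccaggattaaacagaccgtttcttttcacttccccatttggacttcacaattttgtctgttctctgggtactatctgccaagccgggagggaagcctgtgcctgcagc

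The Fcgr1 window held a GAS match, TTCCCAGAA, that begins 109 bases before the start, a motif found in 8.47% of 27025 promoters of this length. In the Fcgr4 window an ISRE core match, GAAAAGGAAA, began 73 bases before the start, and 3.49% of all promoters hold this motif. PU.1 boxes stood 55 bases before the start in Fcgr1, 22 in Fcgr4 and 6 in Fcgr3, each on the opposite strand, and 28.3% of promoters hold one. The RefSeq start of Fcgr3 used here lies within the span of the gene, 171051174 to 171064935. The plot of neighbouring genes instead took the outer end of that span as the start of Fcgr3. No motif overlapped another. None of the 3 motifs occurred in the windows of Fcgr2b, Fcer1g and Fcgrt, which says only that these letters are not there. A match is a description of the sequence and not a measured binding site.

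Interferon response genes were higher in the same libraries as Fcgr1 and Fcgr4. Fcgr1 is a known target of interferon. Of 20 listed interferon response genes 19 were higher in Zfp276cko cells with no overlap of the groups, where 26.4% of all genes were, with a median log2 fold change of 3.09. DESeq2 called 17 of the 20 higher, against 3.05% of all genes. edgeR called 0, and 19 were higher by unadjusted p with the same limits on fold and mean, against 5.11% of all genes. The list summed to 17393 and 7089 normalized counts in the ctrl pair, 114866 and 112112 in the Zfp276cko pair, so that ctrl replicate 1 was above ctrl replicate 2, as for Fcgr1 (2.29-fold) and Fcgr4 (1.64-fold). Its part in the levels of these receptors was not tested.

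The kinases and adaptors downstream of the activating receptors were examined as a list. All 31 listed genes were tested. edgeR called 0 of them. With unadjusted p and the same limits on fold and mean, 4 were higher and 1 lower, where 5.11% and 3.02% of all genes were, and DESeq2 called 2 higher and 1 lower, where it called 3.05% and 2.3% of all genes. The groups did not overlap in 15 genes higher and 6 genes lower in Zfp276cko cells, beside 26.4% and 24.8% of all genes. The median log2 fold change was 0.147, beside −0.00125 over all tested genes. Syk, the kinase that docks to the gamma chain, had 3055 and 3739 normalized counts in the ctrl pair, 5589 and 5712 in the Zfp276cko pair (log2 fold change 0.73 with an SE of 0.14, edgeR adjusted p = 0.161, DESeq2 adjusted p = 0.00228). Syk was picked with its values known.

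Fyn, the most counted gene of this list and a Src family kinase that oligodendrocytes also use, had 39456 and 39172 normalized counts in the ctrl pair, 23193 and 23379 in the Zfp276cko pair (log2 fold change −0.76 with an SE of 0.12, edgeR adjusted p = 0.134, DESeq2 adjusted p = 3e-07). Cybb, the catalytic subunit of the phagocyte NADPH oxidase, had 12205 and 3123 in the ctrl pair, 13041 and 13813 in the Zfp276cko pair. Rac1, Pik3r1 and Arpc1b, the other genes among the 5 most counted, had log2 fold changes of −0.29, −0.13 and 0.16.

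On the inhibitory side, all 10 listed genes were tested, and the median log2 fold change was 0.0624. edgeR called 0 of them. By unadjusted p with the same limits on fold and mean, 1 was higher and 2 lower, against 5.11% and 3.02% of all genes, and DESeq2 called 1 higher and 2 lower, against 3.05% and 2.3%. Inpp5d, the lipid phosphatase recruited by Fcgr2b, was nearly level, with 1859 and 1877 normalized counts in the ctrl pair, 1832 and 1820.5 in the Zfp276cko pair. Ptpn6, a tyrosine phosphatase of blood cells, had 2332 and 2412 in the ctrl pair, 2562 and 2490 in the Zfp276cko pair. Neither showed the 15.7-fold gap of Fcgr2b between the ctrl libraries. Of the 10 genes 2 were at least 2-fold higher in ctrl replicate 1 than in ctrl replicate 2 and 0 at least 2-fold lower. In all genes these shares were 6.67% and 6.02%. Pirb (2.74-fold) and the entry of Lilrb4a with counts (4.11-fold) were named after their values were seen. Sirpa, the inhibitory receptor for CD47, had 9311 and 7448 in the ctrl pair, 12790 and 13349 in the Zfp276cko pair (edgeR adjusted p = 0.194, DESeq2 adjusted p = 0.0251), and Ptpn11 had 12038 and 11873 against 7341 and 7093 (0.123 and 3.47e-06).

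Other proteins with ITAM adaptors gave a mixed picture. Of 14 listed genes 10 were tested, with a median log2 fold change of 0.19 that was 0.851 with ctrl replicate 1 dropped and −0.313 with ctrl replicate 2 dropped. Tyrobp (DAP12), the second ITAM adaptor of microglia, had 3454 and 2262 normalized counts in the ctrl pair, 2747 and 2703 in the Zfp276cko pair. Clec4n (dectin-2), a lectin receptor that signals through the gamma chain, had 1631 and 79.9 in the ctrl pair, 153 and 154 in the Zfp276cko pair and so shared with Fcgr3 the order of the libraries. Clec4d and Clec4e, 2 further lectin receptors that use the gamma chain, had 3744 and 1489 and 1665 and 378 in ctrl, and between 1347 and 2431 in Zfp276cko cells. Clec7a (dectin-1), which carries its own ITAM-like motif, had 484 and 585 in the ctrl pair, 1189 and 1178 in the Zfp276cko pair (log2 fold change 1.15 with an SE of 0.14, edgeR adjusted p = 0.117, DESeq2 adjusted p = 2.19e-06).

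Further genes for Fc binding were listed with their values beside these receptors. Of 14 such genes 7 were tested, and Fcer2a and Ms4a2 had no counts. Trim21, the cytosolic antibody receptor, had 354 and 135 normalized counts in the ctrl pair, 1267 and 1204.5 in the Zfp276cko pair (log2 fold change 2.34 with an SE of 0.49, edgeR adjusted p = 0.179, DESeq2 adjusted p = 4e-05). B2m, the partner chain of Fcgrt, had 15213 and 4260 in the ctrl pair, 26329 and 25738 in the Zfp276cko pair, a log2 fold change of 1.42 (SE 0.63, edgeR adjusted p = 0.385, DESeq2 adjusted p = 0.454). Fcgrt itself did not share this order of the libraries. Fcrl5 had 147 and 464 in the ctrl pair, 1070 and 1076 in the Zfp276cko pair (edgeR adjusted p = 0.272, DESeq2 adjusted p = 0.0119). Fcrls, a microglial relative of the Fc receptors, went the other way, with 12725 and 18324 in the ctrl pair, 6568 and 6762 in the Zfp276cko pair (log2 fold change −1.22 with an SE of 0.21, edgeR adjusted p = 0.148, DESeq2 adjusted p = 1.18e-05).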

How the data were processed

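RNA-Seq was performed on 1° mouse OGC cultures with 2 libraries per genotype. The authors mapped 101-base single-end reads to mm10 with STAR (2.5.4a) and deposited whole-number counts of uniquely mapped reads per gene symbol without normalization. Their methods name HTSeq with Ensembl annotation, while the submitters' processing notes list featureCounts (1.5.1). Libraries came from a stranded kit, and the strand setting of the counting is not given in the sources used here.

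The 4 files were joined row by row. Genes were filtered with filterByExpr, scaled by TMM (0.935 to 1.04) and tested for genotype by the quasi-likelihood method of edgeR (4.0.16, legacy setting, R 4.3.3) and Benjamini-Hochberg adjustment over all 15766 tested genes. Calls required adjusted p up to 0.05, a log2 fold change of 0.6 or more in size and a mean of 20 or more normalized counts. Alternatives were DESeq2 1.42.0, limma voom (limma 3.58.1), other size factors and filters, a replicate block and leaving out each library. The preparations are independent, so p-values measure the spread between preparations. TPM used the union of exons in GENCODE M21 (GRCm38), matched by symbol for 49652 entries, and the Ensembl release of the counting may differ from it. RefSeq promoters were matched for all 6 members, with the first of 2 listed starts for Fcgr3. Intervals are exact Poisson 95% intervals. Sequences of the proteins were not used here.

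The members and gene lists were chosen with earlier results of these data known. Named genes are the 6 members, the 3 genes most like Fcgr3, Fcer1g and Fcgrt, up to 5 most counted tested genes of each list, neighbours on chromosome 1, Zfp276 and Sox10; others are named as chosen after their values were seen or as having no counts. Some genes of the lists are not reported here by name.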

Additional observations from a re-analysis of the deposited data

How the results depend on the processing

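With 2 libraries per genotype, a difference as large as that of Fcgr1 was not past the threshold of edgeR's quasi-likelihood test. The counts of 0 genes called higher and 0 called lower became 8 higher genes without a filter on low counts and 450 higher and 339 lower genes under DESeq2. With each library left out they ranged from 0 to 1792 higher and from 0 to 1286 lower genes, and a lone ctrl library was then assumed to vary like the Zfp276cko pair. Under DESeq2 Fcgr1 (log2 fold change 1.53) and Fcgr4 (2.405) were called. With each library left out, the log2 fold changes ranged from 1.06 to 2.27 for Fcgr1, from −0.79 to 3.19 for Fcgr2b, from −3.42 to 2.72 for Fcgr3, from 2.09 to 2.82 for Fcgr4, from 0.03 to 0.12 for Fcer1g and from −0.53 to 0.30 for Fcgrt. Without ctrl replicate 1 the sign turned for Fcgr3 (2.72) and Fcgrt (0.30), and without ctrl replicate 2 for Fcgr2b (−0.79). Without normalization factors the log2 ratio of ctrl replicate 1 to ctrl replicate 2 was 1.10 for Fcgr1 and −0.018 for Fcer1g. With a replicate block, edgeR called 0 genes in either direction, and the log2 fold changes were 1.67 for Fcgr1, 1.11 for Fcgr2b, −0.66 for Fcgr3 and 2.46 for Fcgr4. The labels do not say whether libraries of the same number share more than that number. Their deviations from the group means had a correlation of 0.00636. This value cannot decide the question, because the Zfp276cko replicates differed little from each other. The block changed no call. limma voom gave 1.24 for Fcgr2b and −0.30 for Fcgr3. The cause was not tested. Of 70 medians of gene lists under alternatives that keep all libraries 66 moved by less than the spread between replicates and 4 by more, and of 40 with a library left out 30 and 10 did.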

Other observations

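Of 11 listed genes of immunoglobulin chains 4 were tested. The IgG heavy chain genes Ighg1, Ighg2b, Ighg2c and Ighg3, named after their values were seen, had between 0 and 10 counts per library. Ighm, the heavy chain of IgM, which these IgG receptors do not bind, had counts of 79 in the first and 26 in the second ctrl replicate, then 498 and 485 in the Zfp276cko replicates. Its log2 fold change was 2.82 (SE 0.59, edgeR adjusted p = 0.179, DESeq2 adjusted p = 3.79e-05), and the groups did not overlap, as for Fcgr1 and Fcgr4. Igkc had 11 and 21 counts in the ctrl pair, 32 and 2 in the Zfp276cko pair, and Jchain had 10 and 8 counts in the ctrl pair, 26 and 7 in the Zfp276cko pair. The B cell markers Cd79a and Ms4a1, chosen after their values were seen, had at most 9 counts in any library.

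The genes most like Fcgr1, Fcgr4 and Fcgr2b were sought after the values of these members were seen. They were Ifi207 for Fcgr1 (root mean square difference of centred log2 values 0.0338), Ptges for Fcgr4 (0.0291) and Gm8822 for Fcgr2b (0.201). Tap1, the peptide transporter of antigen presentation, was the next most like Fcgr4 (0.0394), with 351 and 222 normalized counts in the ctrl pair, 1521 and 1457 in the Zfp276cko pair.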
